A study of Homo sapiens with 16 samples.

Results

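The 10 genes described here form 5 pairs of neighbours on the genome: GLIPR1 with KRR1, DDX47 with APOLD1, PSMA2 with MRPL32, CSNK2B with GPANK1, and EIF4A1 with SENP3. They were found by symbol among the 60252 genes of the deposited count table. All 10 passed a filter on low counts (edgeR's filterByExpr) and are among the 23830 genes tested. The former gene of each pair, called the riser from here on, was selected on its measured log2 fold change, among the largest of all genes, when cells with scrambled siRNA received the kinase inhibitor AT7519, and the latter, the neighbour, because it lies beside or across the riser. That choice used the 4 scrambled siRNA samples, so their AT7519 response is given as a description with no test, and the tests below rest on the other arms. In the fit used here the log2 rise in those samples ranked 1 for GLIPR1, 2 for DDX47, 3 for EIF4A1, 11 for PSMA2 and 13 for CSNK2B among named genes with a mean log2 level of 3 or more. CSNK2B stood at a log2 fold change of 1.97, and the next gene down, EGLN2, at 1.87.

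The study measured RNA in LNCaP, an established human prostate cancer line. The enzyme OGT, which attaches O-GlcNAc sugars to nuclear and cytoplasmic proteins, was lowered with either of 2 siRNAs for 48 h (siOGT1, siOGT2) or targeted with the compound OSMI2, and a scrambled siRNA (Scr) was the control. In each of these 4 arms cells received DMSO or 0.5 μM AT7519, an inhibitor of cyclin-dependent kinases, for 4 h, which gives 8 groups of 2 replicates and 16 samples. The series title concerns the activity of CDK9, the kinase that releases paused RNA polymerase II, and splicing. For OSMI2 neither dose nor duration is stated in the sources used here, nor whether a scrambled siRNA was added, so OSMI2 against Scr may hold a difference in siRNA as well. The labels do not say whether replicates came from separate cultures, so the p-values reflect only how far these samples spread, and that spread may be technical.

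The members serve different housekeeping and signalling roles. EIF4A1 is the RNA helicase of the cap-binding complex eIF4F, which unwinds the start of messenger RNAs for translation, and SENP3 is a nucleolar protease that removes SUMO from proteins. PSMA2 is an alpha subunit of the 20S proteasome core and MRPL32 a protein of the large mitochondrial ribosomal subunit. CSNK2B is the regulatory subunit of the kinase CK2 and GPANK1 carries a G-patch and ankyrin repeats. DDX47 is a DEAD-box helicase of ribosomal RNA processing, and APOLD1 is an apolipoprotein L domain gene known as an early response gene of the endothelium. GLIPR1 is a member of the CAP superfamily that has been studied as a p53 target in prostate cancer, and KRR1 belongs to the small subunit processome, which builds the small ribosomal subunit. Genes that overlap pose a problem for read counting: a read from bases that both genes use cannot be given to either by position alone. HTSeq, which the submitters' processing notes name, leaves such reads uncounted in its default setting. Which setting and strand option made these counts is not stated in the sources used here.

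Names, lengths and overlaps were taken from the gene models of GENCODE v29 on build GRCh38, since no GRCh37 models were at hand. The counts were made on GRCh37, so the models used in counting may differ from these. The GENCODE v29 models show 4 kinds of arrangement. GLIPR1 and KRR1 on chromosome 12 run towards each other, and their spans overlap by 12993 bases and their exons by 1516 bases, all on opposite strands. DDX47, also on chromosome 12, lies on the same strand inside the far larger span of APOLD1, some exons of which cover those of DDX47: 1841 bases, or 36.5% of DDX47's exonic bases, are exonic in both. PSMA2 and MRPL32 on chromosome 7, and CSNK2B and GPANK1 on chromosome 6, start head to head on opposite strands, with starts 23 and 1047 bases apart and exon overlaps of 24 and 343 bases. EIF4A1 and SENP3 on chromosome 17 follow each other on the same strand and do not overlap, with a gap of 736 bases between them. For this pair the name "overlapping" goes against the annotation, and what both overlap is a read-through gene, SENP3-EIF4A1, that holds exons of each.

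**Figure D1:**
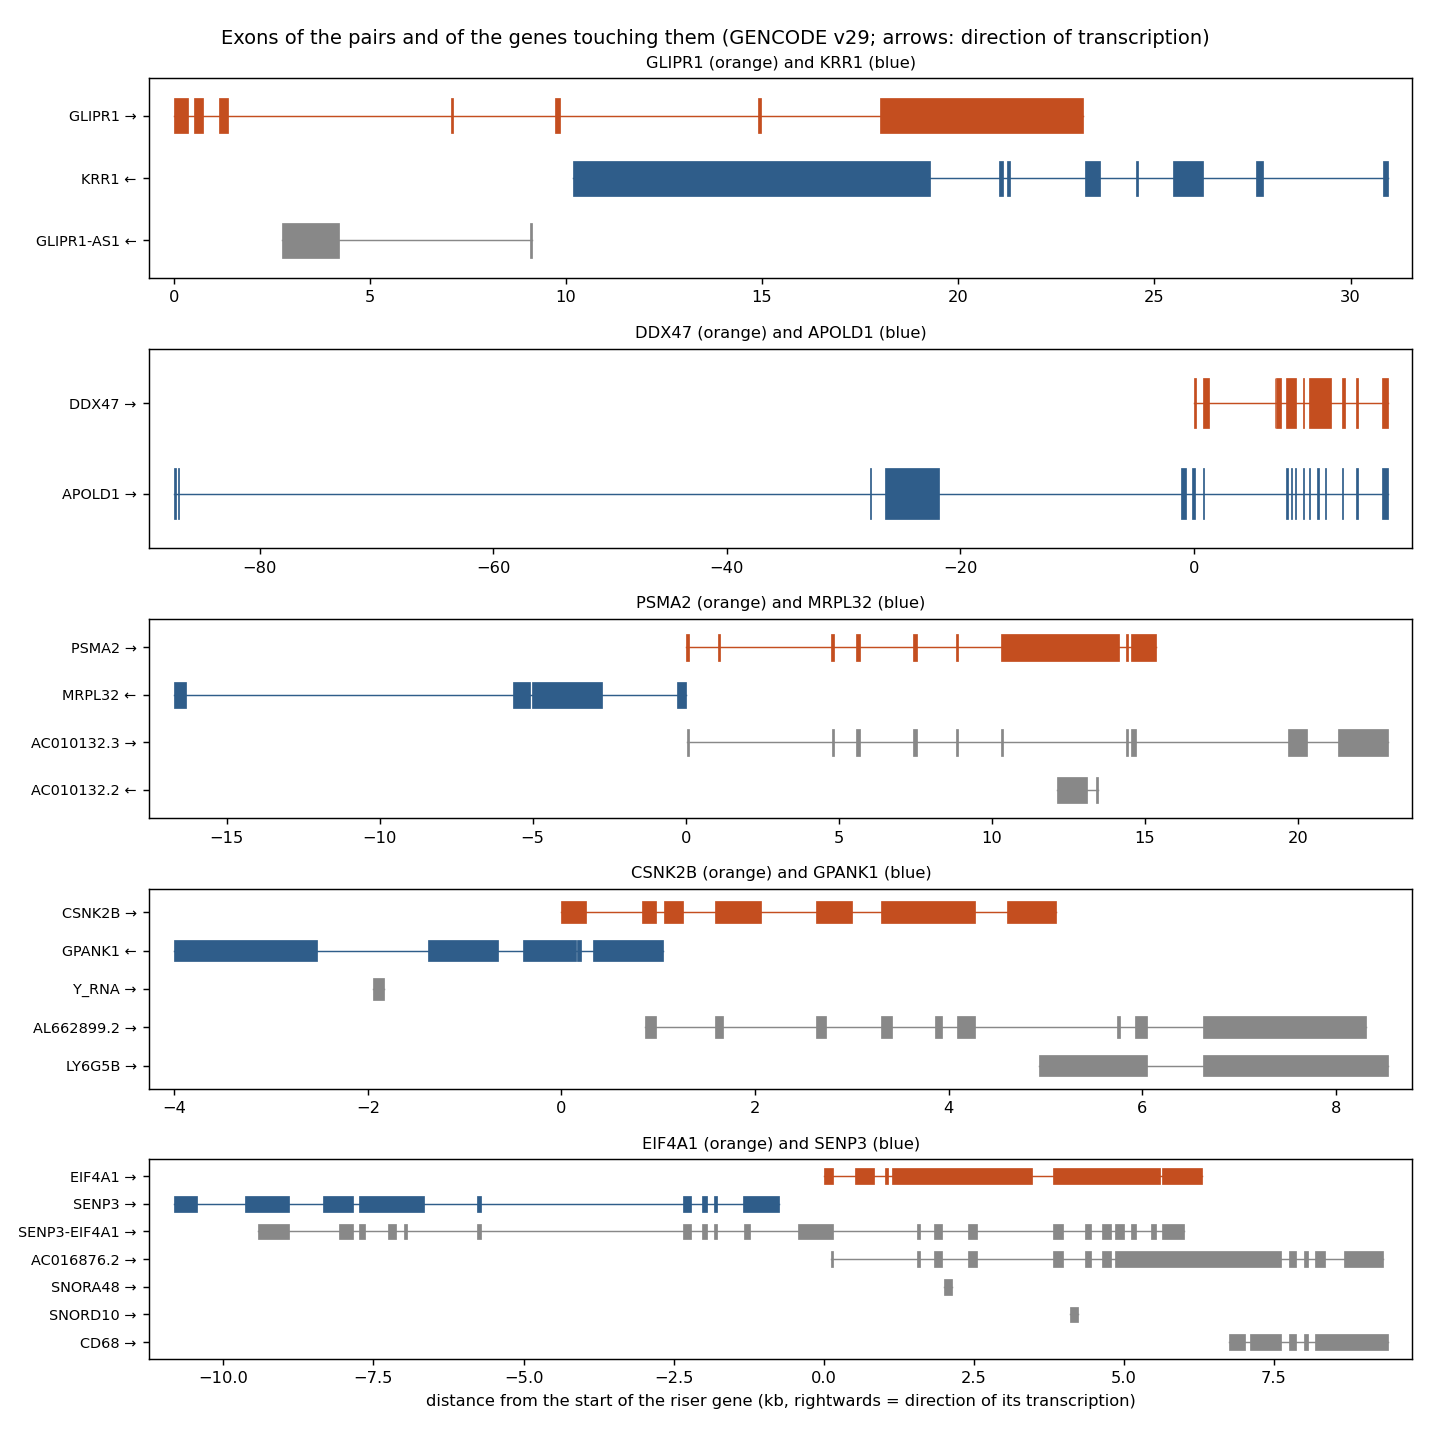
Exons (boxes) and spans (lines) of each riser in orange, its neighbour in blue and the annotated genes that touch the pair in grey, by distance in kb from the start of the riser, with the arrow giving the direction of transcription. The exons of DDX47 stand above exons of APOLD1, and those of EIF4A1 above exons of SENP3-EIF4A1, while PSMA2 and MRPL32 meet only at their starts.

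The sequence at the starts shows how closely 2 of the pairs are packed. RefSeq promoter windows on GRCh38.p14, from 250 bases before to 50 bases after each annotated start, matched 9 of the 10 members with 11 windows, and GLIPR1 had no entry. They were searched on both strands for a YY1 core (its letters are the run of 10 capitals in the PSMA2 window), CCGGAAG (ETS), CCAAT (NF-Y), GCGCATGC (NRF1) and TATAAA (the TATA box), which occur in 1.2%, 10.3%, 34.6%, 3.05% and 11.5% of all 35116 windows in that table. No 2 of these motifs overlap in the windows printed. The windows of PSMA2 and MRPL32 share 299 bases, read from opposite strands, so a single run of letters serves both genes. It is shown in the direction of PSMA2, at chr7:42932125-42932424 on the minus strand, with capitals marking the NRF1 letters on the opposite strand and then the NF-Y and YY1 letters.

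PSMA2: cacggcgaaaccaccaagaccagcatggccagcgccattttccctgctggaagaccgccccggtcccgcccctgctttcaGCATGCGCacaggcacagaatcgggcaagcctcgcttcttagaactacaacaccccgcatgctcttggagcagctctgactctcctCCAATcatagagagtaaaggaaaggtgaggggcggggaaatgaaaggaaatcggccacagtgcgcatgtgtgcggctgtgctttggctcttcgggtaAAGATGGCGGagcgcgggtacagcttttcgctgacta

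The window of CSNK2B, at chr6:31665830-31666129 on the plus strand, shares 51 bases with one of the 2 windows of GPANK1, and the ETS letters lie in the shared stretch. The capitals mark the ETS and NF-Y letters, both on the opposite strand.

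CSNK2B: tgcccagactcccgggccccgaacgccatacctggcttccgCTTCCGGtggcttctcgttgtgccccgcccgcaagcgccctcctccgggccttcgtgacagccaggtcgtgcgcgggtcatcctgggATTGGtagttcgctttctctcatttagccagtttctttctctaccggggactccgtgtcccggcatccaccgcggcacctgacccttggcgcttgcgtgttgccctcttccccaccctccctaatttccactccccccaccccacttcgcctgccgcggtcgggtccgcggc

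DDX47 has a window of its own, at chr12:12813096-12813395 on the plus strand, although it lies within the span of APOLD1, and it is shown because this start is separate from those of APOLD1. The capitals mark the ETS letters on the opposite strand and the YY1 letters.

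DDX47: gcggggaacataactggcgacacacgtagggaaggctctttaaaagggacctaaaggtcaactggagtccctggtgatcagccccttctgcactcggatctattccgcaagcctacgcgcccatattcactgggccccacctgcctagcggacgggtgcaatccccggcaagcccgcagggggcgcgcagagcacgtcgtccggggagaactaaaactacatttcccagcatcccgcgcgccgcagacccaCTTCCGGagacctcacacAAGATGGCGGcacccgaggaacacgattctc

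The downstream of the 2 APOLD1 windows, at chr12:12785409-12785708 on the plus strand, is the only window of the 11 with TATAAA and is shown to set it against that of DDX47. The capitals mark the NF-Y letters on the opposite strand and then the TATA letters.

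APOLD1: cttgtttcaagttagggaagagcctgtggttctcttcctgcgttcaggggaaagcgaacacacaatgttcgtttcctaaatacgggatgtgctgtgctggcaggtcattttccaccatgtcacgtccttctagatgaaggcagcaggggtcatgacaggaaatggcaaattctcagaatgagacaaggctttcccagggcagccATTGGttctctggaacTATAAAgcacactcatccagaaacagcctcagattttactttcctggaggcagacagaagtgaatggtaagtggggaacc

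EIF4A1 starts at its own window, chr17:7572575-7572874 on the plus strand, with 3 copies of CCAAT in capitals, while the window of SENP3 held none of the 5 motifs.

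EIF4A1: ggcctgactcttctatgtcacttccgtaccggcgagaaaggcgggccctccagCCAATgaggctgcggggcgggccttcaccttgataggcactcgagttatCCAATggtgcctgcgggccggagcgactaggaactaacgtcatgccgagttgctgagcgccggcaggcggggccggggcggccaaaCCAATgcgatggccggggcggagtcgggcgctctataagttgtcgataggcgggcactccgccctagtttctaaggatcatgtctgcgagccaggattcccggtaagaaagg

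No motif was held by all 4 risers with a window: the YY1 letters were in PSMA2 and DDX47, the ETS letters in CSNK2B and DDX47, and DDX47 lacked CCAAT. A match is a description of the letters in the window and not a site.

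Every riser was far higher with AT7519 than with DMSO in each of the 3 arms that did not choose it, and no neighbour followed to the same size. With edgeR's quasi-likelihood test and Benjamini-Hochberg adjustment over all genes, 5 of 5 risers were called higher in each of siOGT1, siOGT2 and OSMI2, where 19.4%, 22.2% and 23.6% of all tested genes were called higher. The median log2 fold change of the risers, held by EIF4A1 each time, was 2.93, 3.14 and 3.40 in the same order, beside -0.05, -0.03 and 0.02 over all tested genes. Of the 5 neighbours, MRPL32 rose and APOLD1 and GPANK1 fell in all 3 arms, KRR1 passed only in siOGT2 and SENP3 only in OSMI2. Genes called lower made up 22.0%, 22.8% and 23.6% of those tested in siOGT1, siOGT2 and OSMI2. In bulk RNA, fewer cells that make an RNA and less RNA per cell cannot be told apart.

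**Figure D2:**
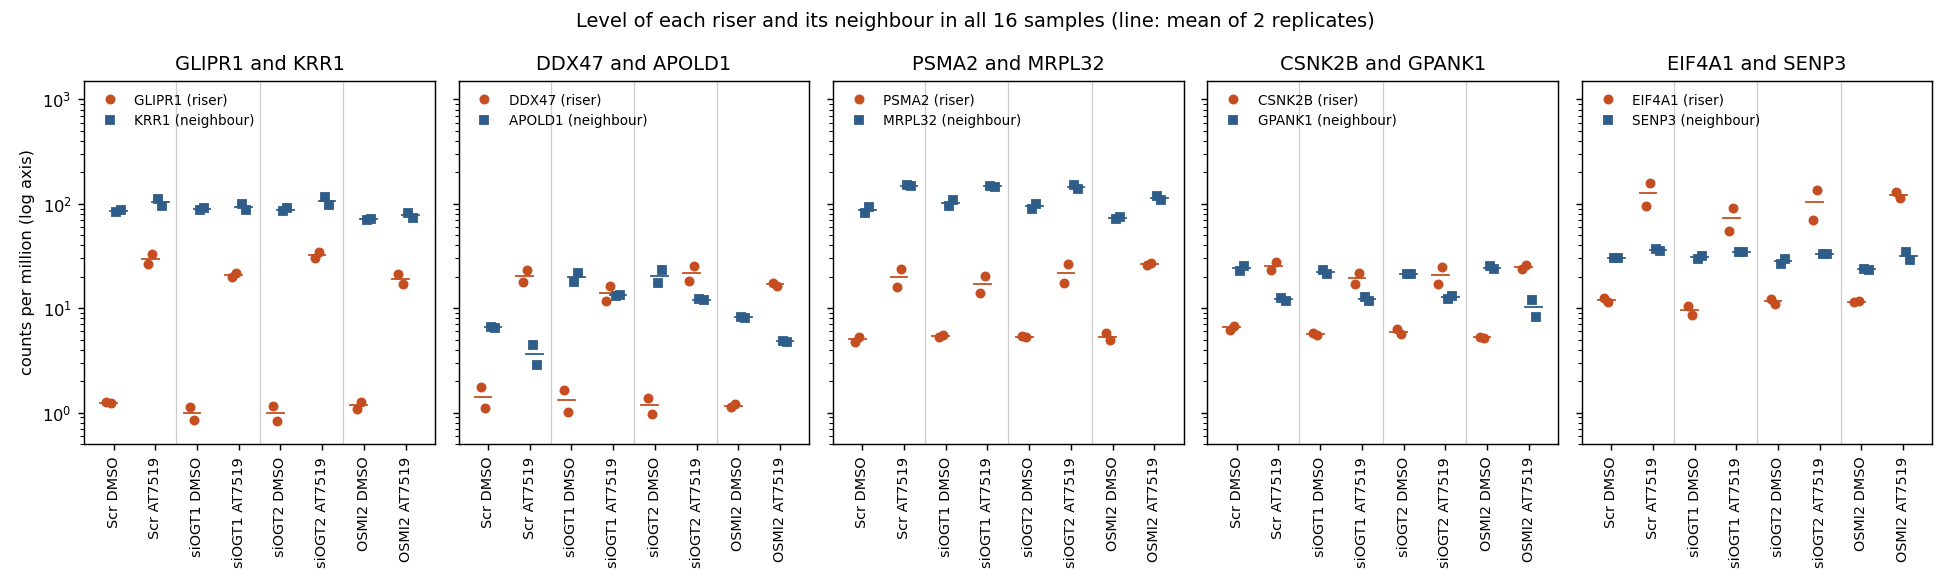
CPM (log axis) of each riser (orange circles) and neighbour (blue squares) in all 16 samples, with a line at the mean of the 2 replicates of each group. In every arm both AT7519 samples of each riser lie above both DMSO samples, while the neighbours move far less.

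GLIPR1 went from barely detected to well detected. Under DMSO its level was 1.26 and 1.23 CPM (counts per 1000000 counts of the library) in Scr, 1.13 and 0.840 in siOGT1, 1.16 and 0.837 in siOGT2, then 1.08 and 1.27 in OSMI2, from 44 to 181 counts. Under AT7519 it was 26.5 and 33.0 CPM in Scr, 19.7 and 21.8 in siOGT1, 30.1 and 34.6 in siOGT2, then 21.4 and 17.1 in OSMI2. The lowest AT7519 sample was far above the highest DMSO sample, and no groups overlapped. The log2 fold change was 4.35 (SE 0.18, adjusted p = 6.46e-12) in siOGT1, 5.01 (SE 0.20, adjusted p = 1.42e-12) in siOGT2 and 4.03 (SE 0.19, adjusted p = 7.16e-12) in OSMI2 by edgeR's quasi-likelihood test, beside 4.57 (SE 0.18) in Scr. KRR1, which overlaps the tail of GLIPR1 on the other strand, was high throughout, at 70.2 to 90.7 CPM with DMSO and 73.5 to 115 CPM with AT7519. Its log2 fold change was 0.07 (SE 0.10, adjusted p = 0.628) in siOGT1, 0.27 (SE 0.10, adjusted p = 0.0279) in siOGT2 and 0.14 (SE 0.10, adjusted p = 0.252) in OSMI2 by edgeR. The KRR1 call in siOGT2 did not hold under every setting: it was lost when libraries were scaled by their totals alone (0.00, adjusted p = 0.978) and under 5 of the other alternatives, and in siOGT1 and OSMI2 the sign turned with that scaling. KRR1 was instead called higher in OSMI2 with upper quartiles (0.31, adjusted p = 0.00667) and, with the replicate number as a block within each agent (chosen after seeing the data), in siOGT1 (adjusted p = 0.0245) and OSMI2 (0.00223). GLIPR1 made up 0.917% to 1.75% of the counts of the pair with DMSO and 16.5% to 26.4% with AT7519.

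DDX47 and APOLD1 moved in opposite directions, and every coding base of DDX47 lies in APOLD1 exons. DDX47 stood at 1.74 and 1.10 CPM in Scr, 1.64 and 1.0 in siOGT1, 1.38 and 0.970 in siOGT2, then 1.14 and 1.2 in OSMI2 with DMSO. With AT7519 it was 17.7 and 23.3 CPM in Scr, 11.6 and 16.2 in siOGT1, 18.4 and 25.2 in siOGT2, then 17.3 and 16.5 in OSMI2. No AT7519 sample came near a DMSO sample, and the log2 fold change was 3.34 (SE 0.26, adjusted p = 2.16e-08) in siOGT1, 4.21 (SE 0.28, adjusted p = 3.37e-09) in siOGT2 and 3.85 (SE 0.27, adjusted p = 3.69e-09) in OSMI2 by edgeR, with 3.82 (SE 0.26) in Scr. APOLD1 with DMSO was 6.61 and 6.45 CPM in Scr, 17.9 and 21.9 in siOGT1, 17.5 and 23.1 in siOGT2, then 8.25 and 8.10 in OSMI2. With AT7519 it was 4.40 and 2.87 CPM in Scr, 13.1 and 13.4 in siOGT1, 12.2 and 12 in siOGT2, then 4.84 and 4.79 in OSMI2. Both AT7519 samples of APOLD1 were below both DMSO samples in every arm, and it fell by 0.58 (SE 0.16, adjusted p = 0.00579) in siOGT1, by 0.75 (SE 0.16, adjusted p = 0.000753) in siOGT2 and by 0.76 (SE 0.17, adjusted p = 0.00104) in OSMI2 on the log2 scale in edgeR's test. The call in siOGT1 was lost without the replicate 2 sample of siOGT1 with DMSO (log2 fold change -0.44, adjusted p = 0.0862). DDX47 supplied 4.03% to 20.8% of the pair's counts over the 8 DMSO samples (median 10.3%). Over the 8 AT7519 samples it supplied 46.9% to 89.0% (median 72.6%). These samples take in Scr, where APOLD1 was lower than in the knockdown arms.

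PSMA2 and MRPL32 both rose, PSMA2 by more. PSMA2 with DMSO was 4.74 and 5.31 CPM in Scr, 5.27 and 5.56 in siOGT1, 5.39 and 5.29 in siOGT2, then 5.76 and 4.93 in OSMI2. With AT7519 it reached 16 and 24.0 CPM in Scr, 14.1 and 20.2 in siOGT1, 17.5 and 26.3 in siOGT2, then 25.7 and 26.9 in OSMI2. The DMSO samples lay close together and the AT7519 samples spread, yet no groups overlapped. The log2 fold change was 1.67 (SE 0.20, adjusted p = 3.20e-06) in siOGT1, 2.03 (SE 0.21, adjusted p = 4.23e-07) in siOGT2 and 2.30 (SE 0.21, adjusted p = 5.81e-08) in OSMI2 by edgeR, and 2.0 (SE 0.21) in Scr. MRPL32, which starts in the same promoter window, went from 71.9 to 108 CPM over the DMSO samples to 109 to 152 CPM over the AT7519 samples, with no overlap within any arm. Its log2 fold change was 0.53 (SE 0.09, adjusted p = 4.74e-05) in siOGT1, 0.62 (SE 0.09, adjusted p = 6.96e-06) in siOGT2 and 0.64 (SE 0.09, adjusted p = 4.33e-06) in OSMI2 by edgeR.

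CSNK2B rose while GPANK1, across the head-to-head start, fell. CSNK2B with DMSO was 6.24 and 6.82 CPM in Scr, 5.79 and 5.56 in siOGT1, 6.27 and 5.63 in siOGT2, then 5.28 and 5.21 in OSMI2. With AT7519 it was 23.4 and 27.6 CPM in Scr, 17.2 and 21.8 in siOGT1, 17 and 24.7 in siOGT2, then 23.7 and 25.9 in OSMI2. The lowest AT7519 sample of CSNK2B was well above the highest DMSO sample, and the log2 fold change was 1.78 (SE 0.16, adjusted p = 4.42e-08) in siOGT1, 1.81 (SE 0.16, adjusted p = 4.25e-08) in siOGT2 and 2.24 (SE 0.16, adjusted p = 1.53e-09) in OSMI2 by edgeR, with 1.97 (SE 0.16) in Scr. GPANK1 with DMSO was 22.6 and 25.5 CPM in Scr, 23.3 and 21.2 in siOGT1, 21.1 and 21.4 in siOGT2, then 25.4 and 23.5 in OSMI2. With AT7519 it was 12.6 and 11.8 CPM in Scr, 12.9 and 11.7 in siOGT1, 12.2 and 13.2 in siOGT2, then 12.1 and 8.32 in OSMI2. All AT7519 samples of GPANK1 were below all of its DMSO samples, and the fall in log2 fold change was -0.85 (SE 0.14, adjusted p = 4.17e-05) in siOGT1, -0.74 (SE 0.14, adjusted p = 0.000188) in siOGT2 and -1.25 (SE 0.14, adjusted p = 4.10e-07) in OSMI2 by edgeR. The pair changed places: CSNK2B gave 17.2% to 22.9% of the pair's counts with DMSO and 57.2% to 75.7% with AT7519.

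EIF4A1 reached the highest level of the risers per kb of exonic length, at a median of 19.5 CPM per kb over the 8 AT7519 samples. With DMSO it was 12.6 and 11.5 CPM in Scr, 10.4 and 8.58 in siOGT1, 12.3 and 11 in siOGT2, then 11.5 and 11.6 in OSMI2. With AT7519 it was 94.2 and 158 CPM in Scr, 54.3 and 91.7 in siOGT1, 70.3 and 136 in siOGT2, then 131 and 113 in OSMI2. The 2 AT7519 replicates lay far apart in the siRNA arms, with replicate 2 at 1.67 to 1.93 times replicate 1, and closer in OSMI2 (0.865 times), and the groups still did not overlap. The log2 fold change was 2.93 (SE 0.38, adjusted p = 0.000197) in siOGT1, 3.14 (SE 0.39, adjusted p = 0.000126) in siOGT2 and 3.40 (SE 0.39, adjusted p = 6.33e-05) in OSMI2 by edgeR, with 3.38 (SE 0.38) in Scr. SENP3, which ends just upstream, was 23.4 to 31.8 CPM with DMSO and 29.2 to 37 CPM with AT7519. Its AT7519 samples lay above its DMSO samples within each arm, with log2 fold changes of 0.18 (SE 0.10, adjusted p = 0.150) in siOGT1, 0.22 (SE 0.10, adjusted p = 0.0728) in siOGT2 and 0.43 (SE 0.10, adjusted p = 0.00125) in OSMI2 by edgeR. The SENP3 call in OSMI2 was lost with scaling by library totals (0.18, adjusted p = 0.142) and without the OSMI2 AT7519 replicate 1 sample (0.25, adjusted p = 0.0925), and in siOGT1 and siOGT2 the sign turned with that scaling. SENP3 was instead called higher in siOGT1 with upper quartiles (adjusted p = 0.0112) and in siOGT2 with upper quartiles (0.00809), relative log expression scaling (0.0465) and DESeq2 (0.0372), and in both with a replicate block within agent (0.0279 and 0.0112). EIF4A1 rose from a median of 28.5% to 75.9% of the pair's counts.

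**Figure D3:**
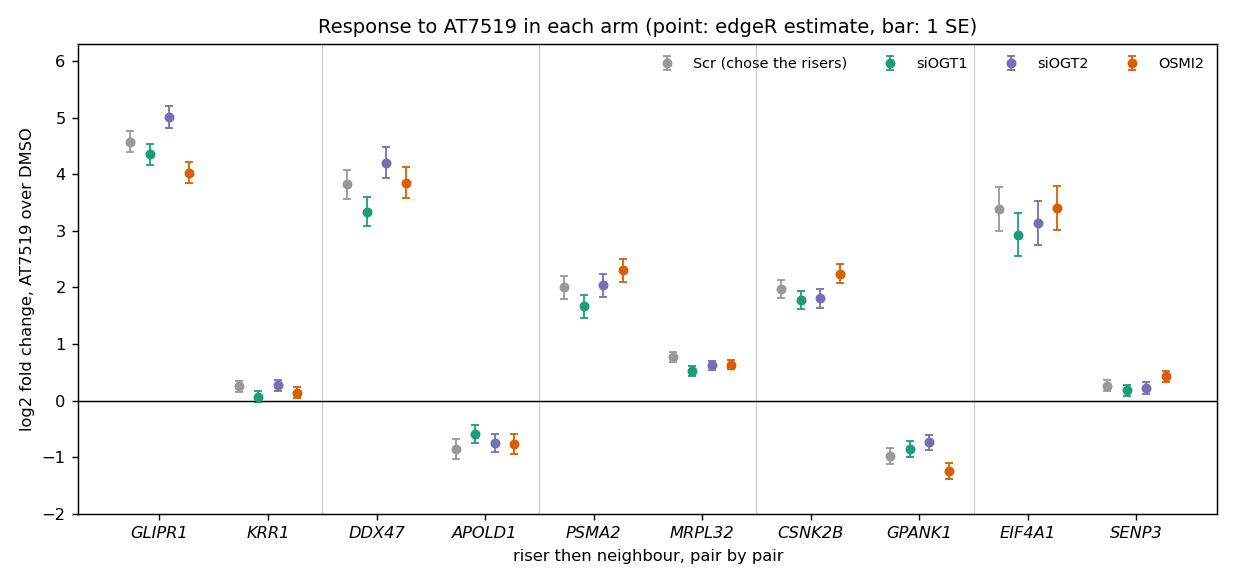
Log2 fold change of AT7519 over DMSO for the 10 genes, pair by pair, in Scr (grey), siOGT1 (green), siOGT2 (purple) and OSMI2 (orange), with bars of 1 SE. Each riser stands at 1.67 or more in all 4 arms, whereas MRPL32, KRR1 and SENP3 lie between 0 and 0.77 and APOLD1 and GPANK1 lie below 0.

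Apart from the pseudocount of 0.5 CPM, the ratio of the 2 genes in a library does not depend on how libraries are scaled. It was therefore tested by itself in the 12 samples outside Scr. The pseudocount is not small beside the DMSO levels of GLIPR1 (0.837 to 1.27 CPM) and DDX47 (0.970 to 1.64 CPM) in these arms. It makes the ratio rises of these 2 pairs smaller. The log2 ratio of riser to neighbour (CPM plus 0.5) rose with AT7519 by 3.80 for GLIPR1 over KRR1, 4.03 for DDX47 over APOLD1, 1.29 for PSMA2 over MRPL32, 2.77 for CSNK2B over GPANK1 and 2.79 for EIF4A1 over SENP3, as means of the 3 arms. The pooled SD between replicates was 0.23, 0.37, 0.27, 0.27 and 0.38 in the same order. In all 5 pairs the AT7519 ratios lay above the DMSO ratios in 3 of 3 arms. With 2 samples against 2, such separation says little by itself. The CPM of 4, 5 and 5 of the 5 neighbours was also separated by agent in siOGT1, siOGT2 and OSMI2. The share of all tested genes separated in this way is not given here. An exact two-sided permutation of the agent within arms gave p = 0.00926 for each pair, also after Benjamini-Hochberg adjustment over the 5 pairs, which is the smallest value the arrangements allow. The arrangements treat the arms as independent. Same-numbered siOGT1 and siOGT2 samples deviated together, at r 0.734 with AT7519 and 0.634 with DMSO, so this p may overstate the evidence. PSMA2 over MRPL32 had the smallest rise, and its neighbour rose too. The 2 pairs with a falling neighbour, DDX47 and CSNK2B, had ratio rises larger than the riser's own log2 fold change.

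In the fit used here no member's response to AT7519 was called different between arms. In edgeR's quasi-likelihood test, 0 of 10 members were called for siOGT2 minus siOGT1, where 0.0126% of all tested genes were called, and 0 of 10 for OSMI2 minus the mean of the 2 siRNAs, where 2.05% were. At an unadjusted p under 0.05, 2 risers and 0 neighbours passed in the former comparison and 2 risers and 1 neighbour in the latter, and DESeq2 called 0 in each. The response of DDX47 was larger in siOGT2 than in siOGT1 by 0.87 (SE 0.37) on the log2 scale and that of GLIPR1 by 0.66 (SE 0.27), and both missed the threshold (adjusted p = 1.0 in edgeR's test). In OSMI2 the response of GLIPR1 differed from the mean of the siRNA arms by -0.65 (SE 0.23, adjusted p = 0.179 by edgeR) and that of CSNK2B by 0.45 (SE 0.20, adjusted p = 0.327). For OSMI2 against the siRNA mean, GLIPR1 was called without the filter on low counts (-0.71, adjusted p = 0.0251 by edgeR), GPANK1 without the OSMI2 AT7519 replicate 1 sample (-0.81, adjusted p = 0.0115) and CSNK2B with a replicate block within agent (0.47, adjusted p = 0.0392). Missing the threshold does not show that the arms respond alike.

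APOLD1 was higher in the OGT knockdown arms than in Scr, with either agent. APOLD1 was 3.04-fold higher in siOGT1 than in Scr with DMSO (log2 fold change 1.6, SE 0.16, adjusted p = 4.55e-06 by edgeR) and 3.10-fold higher in siOGT2 (1.63, SE 0.17, adjusted p = 1.18e-05), from 6.45 and 6.61 CPM to between 17.5 and 23.1 CPM. With AT7519 the knockdown samples were again higher, by 3.67-fold in siOGT1 (log2 fold change 1.88, SE 0.17, adjusted p = 4.07e-07 by edgeR) and 3.34-fold in siOGT2 (1.74, SE 0.17, adjusted p = 7.49e-06). The 4 knockdown groups of APOLD1 therefore stood apart from both Scr and OSMI2, and OSMI2 gave a log2 fold change over Scr of 0.32 (SE 0.16, adjusted p = 0.370 by edgeR) with DMSO and 0.42 (SE 0.18, adjusted p = 0.136) with AT7519. The difference with AT7519 was called after dropping genes whose mean log2 CPM is under 3 (0.52, adjusted p = 0.0468 by edgeR). It ran from 0.10 to 0.69 on leaving out a replicate. Of the 5 neighbours APOLD1 alone was called in siOGT1 and siOGT2 with DMSO, beside 10.4% and 4.30% of all tested genes, and 0 in OSMI2, beside 2.98%. DDX47, whose coding exons APOLD1 contains, was at 0.970 to 1.64 CPM in the same knockdown DMSO samples against 1.10 and 1.74 in Scr. Other settings called further neighbours with DMSO. MRPL32 was called higher in siOGT1 with library totals (adjusted p = 0.0336), after dropping genes whose mean log2 CPM is under 3 (0.0450) and with a replicate block within agent (0.0139). In OSMI2, SENP3 was called lower by DESeq2 (-0.35, adjusted p = 0.00997), in the groups alone (0.0347), with a replicate block (0.0334) and with a block within agent (0.00588), KRR1 in the groups alone (0.0391) and with the block within agent (0.00329), and MRPL32 with the block within agent (0.00726).

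With AT7519 present, the log2 difference of GLIPR1 from Scr was -0.52 in siOGT1, 0.12 in siOGT2 and -0.63 under OSMI2, given with no test because GLIPR1 was chosen for its high level in those Scr samples. Among the neighbours, which were chosen by position, APOLD1 was called in siOGT1 and siOGT2 and KRR1 and MRPL32 in OSMI2, where 19.2%, 8.16% and 14.2% of tested genes were called either way in siOGT1, siOGT2 and OSMI2. KRR1 (-0.40, SE 0.10, adjusted p = 0.00916) and MRPL32 (-0.39, SE 0.09, adjusted p = 0.00411) were lower in OSMI2 than in Scr by edgeR's test, and each missed the threshold without the OSMI2 AT7519 replicate 2 sample (adjusted p = 0.0948 and 0.0520), as did KRR1 without the Scr AT7519 replicate 1 sample (0.0811).

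OGT itself was low in the libraries labelled with its siRNAs. Its level was 263 to 274 CPM in Scr with DMSO and 14.6 to 36.0 CPM in the siOGT1 and siOGT2 samples with DMSO, while OSMI2, which acts on the protein, left it at 336 and 349 CPM. Library totals ran from 40216911 to 147019364 counts. The luminal prostate markers (8 genes, among them KLK3) summed to 3621 to 4267 CPM with DMSO and 4067 to 4956 CPM with AT7519, and the leukocyte markers (4 genes) to at most 0.221 CPM. The basal markers (5 genes, 2 tested) summed to 39.3 to 45.3 CPM with DMSO and 24.9 to 38.5 CPM with AT7519, the stromal ones (7 genes, 5 tested) to 27.5 to 43.2 and 30.3 to 61.5 CPM, and the neuroendocrine ones (4 genes, 2 tested) to 3.52 to 6.38 and 2.76 to 7.16 CPM; their part in the results was not tested. Scaling moved the median log2 fold change of all genes in the AT7519 comparisons by 0.11 to 0.17 with upper quartiles and by -0.26 to -0.22 with library totals, relative to the trimmed mean scaling used here.

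Samples of the same replicate number moved together in the risers. In Scr, siOGT1 and siOGT2 with AT7519, replicate 2 was above replicate 1 for all 5 risers, in 15 of 15 comparisons and by 1.11 to 1.93 times, and for the neighbours in 2 of 15. In OSMI2 this held for 2 of 5 risers. With DMSO the same siRNA arms had replicate 2 above in 3 of 15 comparisons for the risers and 13 of 15 for the neighbours. Over all tested genes, 23.1% had replicate 2 above replicate 1 in all 3 siRNA arms with AT7519 and 19.5% with DMSO. These shares count whole genes, whereas the 15 comparisons count each gene once per arm, in arms that deviated together. What sets the replicates apart was not tested.

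The pairs were chosen as overlapping neighbours, so exons shared with the neighbour are in part what the choice used, and the shares that follow are a description. In 4 of the risers most coding bases are also exonic in another gene on the same strand: 100% in DDX47 (APOLD1), 100% in PSMA2 (AC010132.3, ENSG00000256646), 80.9% in CSNK2B (AL662899.2, ENSG00000263020, among others) and 93.8% in EIF4A1 (SENP3-EIF4A1 and AC016876.2, ENSG00000264772, among others). Among the neighbours this was so for SENP3 only (83.2%), and for KRR1, APOLD1, MRPL32 and GPANK1 it was 0%. GLIPR1 differs from the other risers, with 0% on its own strand and 30.5% when KRR1's strand is counted. The exonic bases that these risers have to themselves on their strand occur largely in transcripts annotated as other than protein-coding, such as retained introns: 99.8% for DDX47, 84.5% for PSMA2, 70.4% for EIF4A1 and 65.1% for CSNK2B. For GLIPR1 that share was 1.64%, for GPANK1 0%, for KRR1 5.87%, for APOLD1 10.9%, for SENP3 49.0% and for MRPL32 70.7%. Whether reads in the shared coding exons entered the counts was not tested, since the counting setting is unknown here.

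The counted levels per kb of PSMA2, EIF4A1, CSNK2B and DDX47 under DMSO were low beside those of their partners. That of GLIPR1 was not low beside its gene family, which is not a complex. The length takes in all annotated exons, coding or not, and a longer length lowers the value. PSMA2 has 5336 exonic and 702 coding bases, EIF4A1 5316 and 1299, CSNK2B 2933 and 702, DDX47 5040 and 1365, and GLIPR1 6273 and 869. The part of this length in the low values was not tested. Per kb of exonic length, PSMA2 had a median of 0.993 CPM per kb over the 8 DMSO samples, and the other 13 genes of the 20S proteasome core ran from 3.36 to 158 CPM per kb with a median of 73.9. With AT7519 PSMA2 had 4.13 CPM per kb and was still below all 13. EIF4A1 had 2.16 CPM per kb with DMSO, below all 9 other genes of the eIF4F and cap-binding list (11.9 to 135), and 19.5 CPM per kb with AT7519, with 7 of 9 above it. CSNK2B had 1.95 CPM per kb with DMSO, below both catalytic CK2 genes (7.10 and 8.38), and 8.02 CPM per kb with AT7519, above both (6.62 and 6.71). DDX47 had 0.232 CPM per kb with DMSO, with 43 of 44 genes of the small subunit processome list above it, and 3.47 CPM per kb with AT7519, with 42 above it. KRR1 at 8.02 CPM per kb and MRPL32 at 25.9 CPM per kb with DMSO were within the range of their complexes, with 35 of 44 and 23 of 48 listed genes above them. GLIPR1 had 0.182 CPM per kb with DMSO, with 4 of 7 other CAP genes above it and their median at 0.223, and 3.85 CPM per kb with AT7519, above all 7.

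The share of large rises was also read over all genes with the same feature. Of the tested protein-coding genes, 392 had 80% or more of their coding bases in exons of another gene on the same strand, among them DDX47, PSMA2, CSNK2B, EIF4A1 and SENP3, and 13080 had none. A log2 fold change of 1 or more was seen in 6.89%, 10.7% and 11% of the former and in 1.44%, 1.84% and 2.21% of the latter in siOGT1, siOGT2 and OSMI2. For a log2 fold change of -1 or less the shares were 12.5%, 15.6% and 12.8% of the former and 12.7%, 13.6% and 15.2% of the latter. Among genes with a mean log2 CPM of 3 or more, the former numbered 160 and the latter 8759. Rises of 1 or more were then seen in 3.75%, 5.6% and 5.6% of the former against 0.17%, 0.38% and 0.24% of the latter. Those were 6, 9 and 9 genes of the former, 4 of them risers. Falls of 1 or more were seen in 3.1%, 5.0% and 4.4% against 6.7%, 6.5% and 10.7%. The median change of the 392 genes was 0.00 as a mean of the 3 arms, and 23.0%, 27.3% and 27.6% of them were called higher. Of the 13080 genes, 21.5%, 24.0% and 24.3% were called higher. Within the 392 genes DDX47 ranked 1, EIF4A1 4, PSMA2 13, CSNK2B 14 and SENP3 139. These shares are descriptions with no test, since the genes are not independent replicates and 4 of the 392 are risers chosen for both their rise and their overlap.

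**Figure D4:**
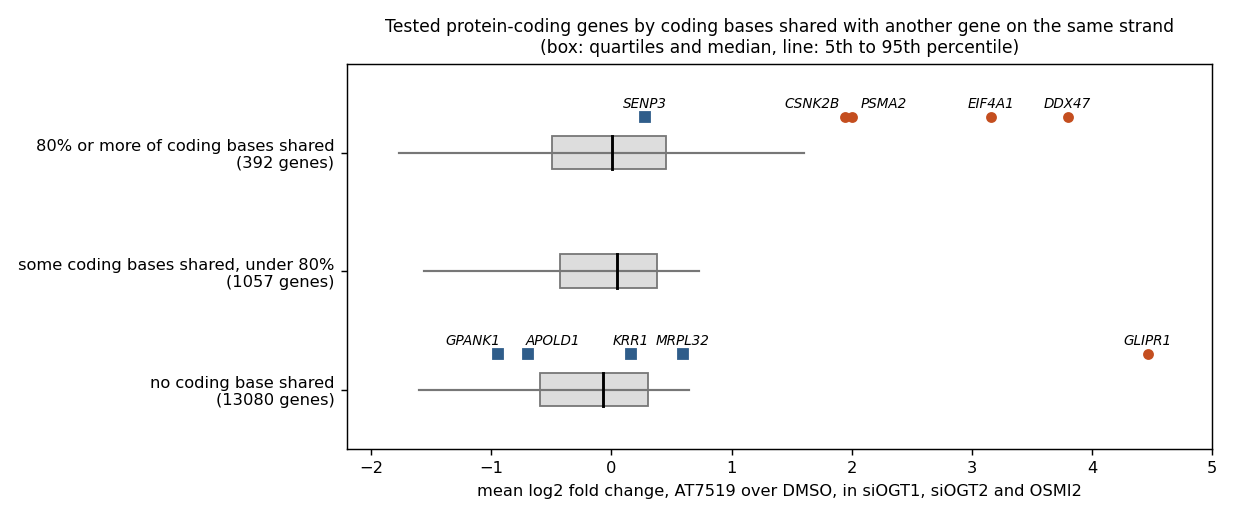
Mean log2 fold change of AT7519 over DMSO in siOGT1, siOGT2 and OSMI2 for tested protein-coding genes, by the share of coding bases that lie in exons of another gene on the same strand, with boxes at the quartiles, a bar at the median and lines from the 5th to the 95th percentile. The risers (orange) DDX47, EIF4A1, PSMA2 and CSNK2B lie beyond the 95th percentile of the 392 genes with 80% or more shared, GLIPR1 lies far beyond the 95th percentile of the 13080 genes with none, of which it is one, and the neighbours (blue) lie within the lines.

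No other tested gene at these loci was called higher in all 3 arms. The count table held 18 further genes that overlap a member or lie within 2 kb of one, of which 8 were tested and 6 had no count in any sample. SENP3-EIF4A1 had 6 to 48 counts per sample and was called in none of the 3 arms. AC010132.3, which shares the coding exons of PSMA2, had at most 6 counts in any sample, and AL662899.2, which shares those of CSNK2B, had 0. C6orf47, within 2 kb of GPANK1 and on its strand, fell in all 3 arms, from 19.3 to 26.8 CPM over the DMSO samples to 5.26 to 11.7 CPM over the AT7519 samples, with log2 fold changes of -1.41 (SE 0.17, adjusted p = 1.94e-06) in siOGT1, -1.58 (SE 0.17, adjusted p = 4.90e-07) in siOGT2 and -2.09 (SE 0.18, adjusted p = 1.48e-08) in OSMI2 by edgeR. Around EIF4A1, on its strand, both remaining tested genes fell: CD68, a macrophage marker within 2 kb, had 20 to 61 counts per DMSO sample and 0 to 5 per AT7519 sample, and AC016876.2, which shares exons with EIF4A1, had 8 to 48 and 0 to 11, with both called lower in 3 of 3 arms. A Y RNA gene inside GPANK1, a member of a repeated family whose reads may be shared with its copies, had 8 to 53 and 21 to 67 counts per sample and was called higher in siOGT1 and siOGT2 and not in OSMI2. TNFSF13 was called lower in siOGT2 only, and GLIPR1-AS1 and LY6G5B were called in none of the 3 arms.

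Genes of the members' complexes and families were read from lists. Proteasome genes rose together: 13 of 13 other 20S genes were called higher in each of siOGT1, siOGT2 and OSMI2, with median log2 fold changes of 0.47, 0.52 and 0.49 beside -0.05, -0.03 and 0.02 over all tested genes. PSMA6, another alpha subunit, rose most (1.13, SE 0.11, in siOGT1, 1.2, SE 0.11, in siOGT2 and 1.64, SE 0.11, in OSMI2). It still rose less than the counted level of PSMA2, and PSMA7 followed at 0.63, 0.71 and 0.70. Of the 48 other mitochondrial large subunit genes, 35, 36 and 32 were called higher in the 3 arms, 0, 0 and 3 lower and 13, 12 and 13 neither, with medians of 0.39, 0.46 and 0.40. Over all tested genes 19.4%, 22.2% and 23.6% were called higher and 22.0%, 22.8% and 23.6% lower, against which these and the following counts are to be read. MRPL38 (1.31, 1.43 and 1.37) and MRPL23 (0.70, 0.69 and 0.81) rose in all 3 arms.

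Of the cap-binding list around EIF4A1, 6 of 9 genes were called higher, 0 lower and 3 neither in each of the 3 arms. EIF4A2, the close paralogue of EIF4A1, rose by 0.97 (SE 0.07), 1.27 (SE 0.07) and 0.93 (SE 0.07) in siOGT1, siOGT2 and OSMI2, and EIF4EBP1, which restrains eIF4E, rose by 0.54, 0.39 and 0.48. The SUMO list around SENP3 had 5, 6 and 6 of 11 called higher and 4 lower in each arm, and 2, 1 and 1 neither. Falls in all 3 arms were seen in the proteases SENP5 (-1.24, -1.18 and -1.49) and SENP2 (-0.89, -1.14 and -1.67). The counted level of CSNK2B rose without those of its catalytic partners: CSNK2A2 fell (-0.39, -0.25 and -0.73) and CSNK2A1 was called in no arm. Whether the counts of CSNK2B follow its coding transcripts was not tested.

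The small subunit processome list around KRR1 and DDX47 had 13, 19 and 13 of 43 tested genes called higher, 8, 5 and 10 lower and 22, 19 and 20 neither in siOGT1, siOGT2 and OSMI2. RCL1 (-0.74, -0.52 and -1.07) and WDR36 (-0.67, -0.67 and -0.92) fell in all 3 arms. Of the 11 other G-patch genes 0 were called higher, 7, 6 and 6 lower and 4, 5 and 5 neither, and GPATCH11 (-1.26, -1.47 and -2.25) and GPATCH8 (-0.77, -0.79 and -1.52) fell in all 3 arms. No other CAP gene rose in the manner of GLIPR1: 5 of 7 were tested, 0, 0 and 1 were called higher, and CRISPLD2 fell in all 3 arms (-1.14, -0.91 and -0.81). Of the APOL genes related to APOLD1, 5 of 6 were tested, none was called higher, and APOL2 fell in all 3 arms (-1.04, -1.10 and -0.88).

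The genes whose pattern over the 16 samples came closest to each riser were mostly not members of these families. By Pearson's r of log2 CPM over 16 samples that share libraries and the agent, among 10002 named genes outside the loci, MATR3, a nuclear RNA-binding protein gene, and CCNL1, a cyclin of splicing factor regulation, were closest to GLIPR1 (r = 0.99 and 0.99) and to DDX47 (0.99 and 0.99). In MATR3, too, 95.7% of coding bases lie in exons of another gene on the same strand, and in CCNL1 0%. CHASERR, a long non-coding RNA gene, and RBFA, a mitochondrial ribosome assembly factor gene, were closest to PSMA2 (0.99 and 0.98). The translation factor gene EIF3G and the ribosomal protein gene RPS15A were closest to CSNK2B (0.99 and 0.99). SNHG17, a small nucleolar RNA host gene, and RBFA were closest to EIF4A1 (0.99 and 0.99). Pearson's r leaves out the size of a change. In siOGT1, siOGT2 and OSMI2, MATR3 rose with AT7519 by 2.45, 2.93 and 2.15 on the log2 scale and CCNL1 by 1.81, 2.27 and 1.88. CHASERR rose by 1.70, 2.19 and 2.40, SNHG17 by 1.43, 1.74 and 1.92 and RPS15A by 1.16, 1.37 and 1.77. EIF3G rose by only 0.51, 0.50 and 0.69 and RBFA by 0.71, 0.72 and 0.91, far less than CSNK2B, PSMA2 and EIF4A1.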

How the data were processed

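RNA of 16 LNCaP samples (8 groups, 2 replicates each) was prepared as strand-specific libraries, per the labels' protocols. The authors deposited raw counts per gene, made with STAR, HTSeq and DESeq2 on the builds hg19 and GRCh37 per the submitters' processing notes, with no version or setting stated in the sources used here. A deposited normalized signal table equals those counts divided by a size factor per sample (largest relative deviation 5.5e-10) and served only as a check.

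Counts were fitted over all 16 samples with edgeR 4.0.16 (R 4.3.3; TMM scaling, filterByExpr, quasi-likelihood test, 8 residual degrees of freedom, common biological coefficient of variation 0.11), with Benjamini-Hochberg adjustment over 23830 genes and a threshold of 0.05. The SE of a log2 fold change is its size divided by the square root of F. CPM are counts per 1000000 after TMM scaling. DESeq2 1.42.0 was an alternative, beside other scalings, filters, fits and each replicate left out. The fits were tested on simulated data. Library totals of 40216911 to 147019364 counts set the counting precision. Replicates correlated at r = 0.983 to 0.991. Of the 60252 gene IDs 55951 had a GENCODE v29 model, and no GRCh37 coordinates are printed. Promoter windows are RefSeq's (GRCh38.p14).

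The members and lists were chosen with earlier results of these data known. Values were given for all 10 members, for tested genes that overlap one or lie within 2 kb, for the 2 genes per list with the largest mean change among those called in siOGT1, siOGT2 and OSMI2, and for the 2 genes most correlated with each riser. Some luminal markers of the list fixed for this work are not reported here, and the sum is over the other 8.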

Additional observations from a re-analysis of the deposited data

How the results depend on the processing

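Alternative values were compared over the members and every comparison but AT7519 against DMSO in Scr. Of 1550, 1495 stayed on their side of the threshold, 37 passed it newly, 18 no longer passed it and 0 reversed a call. Uncalled values whose sign turned are among the 1495, as for KRR1 and SENP3 in siOGT1 with library totals. The 1550 include comparisons of the other arms with Scr, which for the risers use samples that chose them. For the AT7519 effect outside Scr, the 5 risers, MRPL32 and GPANK1 passed under all alternatives run. Requiring a mean log2 CPM of 3 or more left fewer genes to test than the 23830 of the main fit. Of those, 6806, 6339, 6544 and 7151 were called for AT7519 in the arms Scr, siOGT1, siOGT2 and OSMI2. Leaving out a replicate gave 8845 to 9774, 7441 to 8245, 8432 to 9268 and 8915 to 9429. For siOGT1 against Scr with DMSO, fitting only the groups compared gave 3925 and leaving out a replicate 776 to 1359. For siOGT2 these were 1633 and 182 to 396, with DESeq2 at 1594. For OSMI2 they were 1575 and 9 to 371, with DESeq2 at 1476, upper quartiles at 378 and library totals at 390. With AT7519, siOGT1 against Scr gave 2533 and 2853 to 3427, siOGT2 247 and 872 to 1520, and OSMI2 1583 to 3212 on leaving out a replicate. The siOGT2 minus siOGT1 response had 21 genes without the filter, 21 with DESeq2, 0 in the groups alone and 0 to 7 on leaving out a replicate. OSMI2 minus the siRNA mean had 1149 without the filter, 969 with DESeq2 and 165 to 846 on leaving out a replicate. A filter changes how many genes are tested, and the cause of the other shifts was not tested. Same-numbered samples deviated together between siRNA arms given the same agent (r 0.60 to 0.73, 6 pairs) but not between agents in these arms (-0.14 to 0.04, 9 pairs). OSMI2 with AT7519 and OSMI2 with DMSO did (r 0.43), while OSMI2 and the siRNA arms with the same agent gave 0.045 to 0.185 (6 pairs), so the numbers were not taken to pair the AT7519 comparisons. A replicate block gave 1605 genes for siOGT2 against Scr with DMSO, 1224 for OSMI2 and 776 for the OSMI2 response. A replicate block within agent, chosen after seeing the data, gave 4387 for siOGT1, 2574 for siOGT2 and 2391 for OSMI2 with DMSO, 3931 for siOGT2 and 5555 for OSMI2 with AT7519, and 29 and 1622 for the responses. In a single arm the ratio changes were 3.55 (siOGT1) and 4.44 (siOGT2) for DDX47, 4.20 (siOGT2) and 3.41 (OSMI2) for GLIPR1, 2.42 (siOGT2) and 3.38 (OSMI2) for CSNK2B, and 1.57 (OSMI2) for PSMA2. With the replicate block the exact permutation p of each ratio was 0.0312, the smallest it allows. Leaving out a replicate gave 3.72 to 3.87 for GLIPR1, 3.89 to 4.16 for DDX47, 1.18 to 1.41 for PSMA2, 2.67 to 2.88 for CSNK2B and 2.64 to 2.95 for EIF4A1. Over all 19 alternatives run, the ratio change was 2.91 to 4.33 for GLIPR1 and 3.16 to 4.51 for DDX47. It was 1.03 to 1.57 for PSMA2, 2.42 to 3.38 for CSNK2B and 2.64 to 2.95 for EIF4A1.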
